A study of Mus musculus with 6 samples.

Results

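Mouse genes that still carry a provisional name were examined by name in RNA from C17.2 cells. They are predicted genes (Gm followed by a number), genes named after a RIKEN cDNA clone (names ending in Rik) and named pseudogenes (names containing -ps). By these name rules alone, 583 of the 15113 listed transcripts were members: 358 Gm, 147 Rik and 78 -ps transcripts, from 525 gene names. No measured value entered the choice. The other 10365 transcripts with a gene name ("other named") served as the background, and 4165 transcripts without a gene name were left aside.

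C17.2 is an established clonal mouse neural stem and progenitor line, here labelled as of CD1 x C57BL/6 strain. The control group was grown in DMEM/F12 with 10% fetal bovine serum, the second group is labelled as treated with heme, and the third was cultured for neural induction in Knockout DMEM with GlutaMAX, N2 and BDNF, a neurotrophin, at 10 ng/ml. The labels give 2 biological replicates per group and do not say whether they came from separate cultures, so p-values measure only the spread between these libraries. The sources used here give neither a heme dose nor a duration.

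The values are FPKM, which set the fragments of a transcript against its length and against the depth of its library. Mapped sequence behind them ranged from 4.14 to 4.56 gigabases in 5 libraries. The second heme column equalled the first times 1.25 to 1.50 for every transcript above 0 (560 members included), so both heme columns were counted as 1 sample and the first was used. Of the marker genes of neural progenitors, 4 of 9 were listed (Hes1, Nes, Sox2 and Vim), with summed levels from 786.5 to 914.6 FPKM per library. Most of this sum was Vim, at 663.5 to 798.3 FPKM. Neuron markers were listed for 2 of 7 genes (21.8 to 32.6 FPKM summed) and oligodendrocyte markers for 2 of 6 (88.0 to 107.1). Mesenchymal markers were listed for 6 of 6 genes, with a higher sum of 2087 to 2873 FPKM per library. Most of this sum was Acta2, Col1a1 and Col3a1, while Tagln was at 1.85 to 5.04 FPKM and Pdgfrb at 0.467 to 38.4. None of the 5 astrocyte, 5 microglia, 7 erythroid and 4 endothelial markers was listed. The table holds a part of all transcripts, so a gene that is not listed cannot be read as being at 0.

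A processed pseudogene arises when an mRNA is copied back into DNA and inserted elsewhere in the genome. It therefore starts without introns, and while it is young it is almost identical to the mRNA of its parent gene. The nucleus also holds insertions of mitochondrial DNA. Short reads from the parent RNA can align to such copies equally well, and the sources used here do not say how reads with several matches were assigned. Abundant parents such as ribosomal protein genes and Gapdh, a glycolytic enzyme, are known to have many such copies in rodents.

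Sequences of members at high level are shown first, since their likeness to other genes recurs in all later results. They were taken from the GENCODE M21 transcripts (GRCm38). Each stretch of 60 bases was picked for the most differences in a given copy: Gm13341 for mt-Co2, Gm16470 for Gapdh and Rps2-ps13 for Rps2. These stretches therefore overstate how far those copies differ as a whole. The first set is a stretch of 60 bases of mt-Co2, which encodes subunit II of cytochrome c oxidase, at chrMT:7457-7516 on the plus strand, with its nuclear copies Gm28661 at chr1:24615062-24615121 and Gm13341 at chr2:22587471-22587530, both on the minus strand. Capitals mark bases that differ from mt-Co2.
mt-Co2: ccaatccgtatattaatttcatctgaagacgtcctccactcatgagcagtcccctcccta
Gm28661: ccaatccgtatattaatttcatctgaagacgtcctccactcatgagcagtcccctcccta
Gm13341: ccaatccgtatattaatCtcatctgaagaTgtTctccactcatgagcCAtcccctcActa

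The second set compares 60 coding bases of Gapdh with the copies Gm12671 (chr4:91852391-91852450, minus strand), Gm13394 (chr2:28934331-28934390, minus strand) and Gm16470 (chr19:40212603-40212662, plus strand). They are, in that order, a copy identical to the Gapdh mRNA over its aligned length, the copy with the highest level and the copy with the lowest identity. Capitals mark bases that differ from Gapdh.
Gapdh: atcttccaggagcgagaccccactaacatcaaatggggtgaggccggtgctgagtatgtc
Gm12671: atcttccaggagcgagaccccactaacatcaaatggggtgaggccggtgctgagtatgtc
Gm13394: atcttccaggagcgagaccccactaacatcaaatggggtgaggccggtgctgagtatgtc
Gm16470: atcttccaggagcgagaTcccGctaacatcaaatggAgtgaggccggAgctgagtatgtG

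The third set gives 60 coding bases of Rps2, a protein of the small ribosomal subunit, and the same stretch of Rps2-ps13 (chrX:52898612-52898671, plus strand), the -ps member with the highest level.
Rps2: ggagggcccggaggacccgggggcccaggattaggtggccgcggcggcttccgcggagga
Rps2-ps13: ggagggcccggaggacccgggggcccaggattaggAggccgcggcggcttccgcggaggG

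The last 2 sequences are whole members annotated as miRNA genes. Gm27597 (chr11:98029413-98029492, plus strand) is 80 bases long and lies wholly in the coding sequence of Rpl19, a protein of the large ribosomal subunit. Gm23935 (chr16:11144125-11144181, plus strand) is 57 bases long, and Gm24245 (chr4:139338304-139338360, plus strand) has the same 57 bases.
Gm27597: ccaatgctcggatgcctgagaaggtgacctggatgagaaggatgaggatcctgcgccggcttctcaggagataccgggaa
Gm23935: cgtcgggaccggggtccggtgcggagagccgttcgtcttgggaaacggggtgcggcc

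The 3 name classes held different kinds of transcript. Of the Gm transcripts 298 of 358 (83.2%) had 1 exon, and of the -ps transcripts 77 of 78 (98.7%), against 9 of 147 Rik transcripts (6.12%) and 1.62% of other named transcripts. The median number of exons was 1 for Gm, 5 for Rik, 1 for -ps and 8 for other named transcripts. Median lengths were 534 bases for Gm, 1541 for Rik, 488.5 for -ps and 2197 for other named transcripts. The largest models were 2610507B11Rik with 39 exons and 4930402H24Rik with 37, while among Gm members Gm42715 had 31.

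In GENCODE M21, 577 of the 583 members were found by transcript identifier, and 507 of them had the same start and end. Of the Gm transcripts 198 were annotated as processed pseudogenes, 35 as protein coding, 31 as small nucleolar RNAs (snoRNAs), 21 as transcribed processed pseudogenes, 15 as miRNAs and 14 as unprocessed pseudogenes. The Rik class was mostly coding: 113 of 147 transcripts belonged to protein-coding genes and 10 to long intergenic RNAs. In M21, 56 members carried another symbol, 42 of them Rik transcripts. Examples are 2310036O22Rik (Trir), 2010107E04Rik (Atp5mpl, a small protein of the mitochondrial ATP synthase), 3110043O21Rik (C9orf72) and 9030624J02Rik (Vps35l). The -ps class held 70 processed pseudogenes, 4 transcripts of protein-coding genes, 3 transcribed processed pseudogenes and 1 unprocessed pseudogene.

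Levels also differed by class. The median of the mean FPKM over the 5 libraries was 19.8 for Gm (SD of the class median over libraries 0.874, n = 5), 5.24 for Rik (0.389), 30.1 for -ps (1.11) and 7.01 for other named transcripts (0.0840). Per library the class medians ran from 18.3 to 20.3 FPKM for Gm, from 5.08 to 6.10 for Rik and from 29.5 to 32.3 for -ps, so the ranges of the classes did not overlap in these libraries. The quartiles were 6.60 and 46.3 FPKM for Gm, 2.25 and 12.9 for Rik, and 21.8 and 77.3 for -ps. A mean above 100 FPKM was reached by 48 Gm and 9 -ps transcripts and by no Rik transcript, whose maximum was 91.7 FPKM. A value of 0 in at least 1 library was listed for 16 Gm transcripts (4.47%), 30 Rik transcripts (20.4%) and no -ps transcript, against 9.87% of other named transcripts. Members took 10.4% to 11.4% of all listed FPKM per library, and the Gm class alone took 8.90% to 9.86%.

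**Figure D1:**
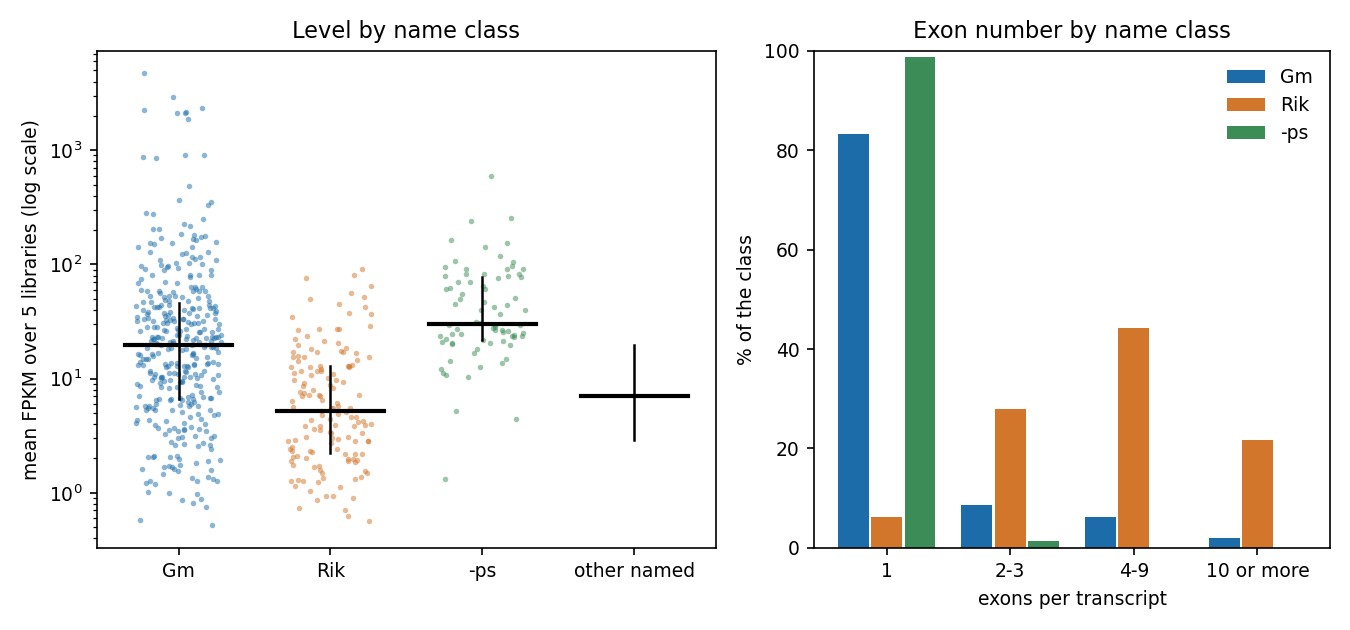
Left, mean FPKM over 5 libraries (log scale) of each member by name class, with the median (thick bar) and quartiles (thin line); other named transcripts are shown by median and quartiles only. Right, percentage of each class by number of exons: 83.2% of Gm and 98.7% of -ps transcripts had 1 exon, against 6.12% of Rik transcripts.

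Sequence shared with other genes separated the classes as well. For every transcript the percentage of its 31-base windows that also occur in a transcript of another GENCODE gene was computed. The median was 91.2% for Gm, 2.99% for Rik, 96.4% for -ps and 0.475% for other named transcripts. All windows were shared in 95 Gm and 31 -ps transcripts and in no Rik transcript. At most 5% of windows were shared in 16 Gm transcripts, 85 Rik transcripts and no -ps transcript. Among these transcripts with little shared sequence the median level was 4.63 FPKM for Gm and 4.83 for Rik, beside 6.18 for other named transcripts chosen in the same way.

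Members with at least 90% of their length inside exons of another gene on the same strand were set aside here, and other overlaps were kept. By a blastn search, 312 Gm and -ps members then matched the mRNA of a coding gene at 95% identity or more over at least 90% of their length. They were 234 Gm transcripts and all 78 -ps transcripts, matched to 178 coding genes, and 303 of them had 1 exon. They are called copies here by this match alone, and where several genes matched equally well only 1 was kept. Their median identity was 99.5%, and 63 were identical over the aligned length. Copies of 58 ribosomal protein genes made up 130 of the 312. For 304 copies the coding gene was listed too, and the median level of the copy was 12.3% of the listed level of its gene (quartiles 4.96% and 31.7%). In 20 cases it exceeded 90%. Here and below, the level of a gene is the sum of the transcripts listed under its name. Unnamed transcripts of its locus and transcripts that are not listed are missing from it, so these percentages can be too high.

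The highest levels of all members came from a stretch of chromosome 1 whose sequence matches mitochondrial DNA. It lies at chr1:24611535-24616197 on the minus strand and holds 7 listed members next to each other: Gm28439, Gm10222, Gm28438, Gm28437, Gm10925, Gm28661 and Gm29216. Their matches were mt-Nd4, mt-Nd4l, mt-Nd3, mt-Co3, mt-Atp6, mt-Co2 and mt-Co1, genes for subunits of respiratory complex I, cytochrome c oxidase and ATP synthase. Identity was 100% for 5 of them, 99.7% for Gm28438 and 99.8% for Gm29216. Together they took 30.2% to 35.3% of the FPKM of all members per library.

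Gm10925, the member with the highest level, was listed at 4466 and 5148 FPKM in the control libraries, 5134 in the heme library and 3959 and 4885 in the induction libraries. Its match mt-Atp6 was listed at 4220, 4865, 4853, 3743 and 4617 FPKM in the same order. Copy and gene were lowest in the first induction library and highest in the second control library, and the copy stood at 105.8% of the gene on average. Gm28661 was at 2308, 3362, 3159, 2713 and 3032 FPKM and mt-Co2 at 2324, 3382, 3181, 2733 and 3063. Gm28437 stood at 99.98% of mt-Co3, Gm28438 at 101.7% of mt-Nd3 and Gm10222 at 100.2% of mt-Nd4l. Of the 7, the 2 furthest below their genes were Gm28439 at 73.9% of mt-Nd4 and Gm29216 at 52.8% of mt-Co1. Gm28661 stood slightly below, at 99.3% of mt-Co2. The 2 control libraries spanned the values of all others: the summed level of this stretch was 12794 and 16109 FPKM in control, 15696 in heme and 12965 and 15156 in induction.

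A second set of mitochondrial copies, on chromosome 2, was less alike in sequence and lower in level. Gm13341 (95.9% identity to mt-Co2) was listed at 84.5, 125.0, 118.3, 108.9 and 114.6 FPKM, Gm13340 (97.6%, mt-Co1) at 38.4, 58.1, 51.2, 50.1 and 59.8 and Gm13339 (96.7%, mt-Nd2) at 27.1, 33.6, 32.9, 30.1 and 36.9. The first control library was the lowest for all 3. Their mean levels were 3.75%, 1.27% and 1.46% of those of their genes. The mt-Co2 stretch printed above was picked for its differences in Gm13341, where it holds 6. Gm28661, identical to mt-Co2 over its whole length, could hold none.

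**Figure D2:**
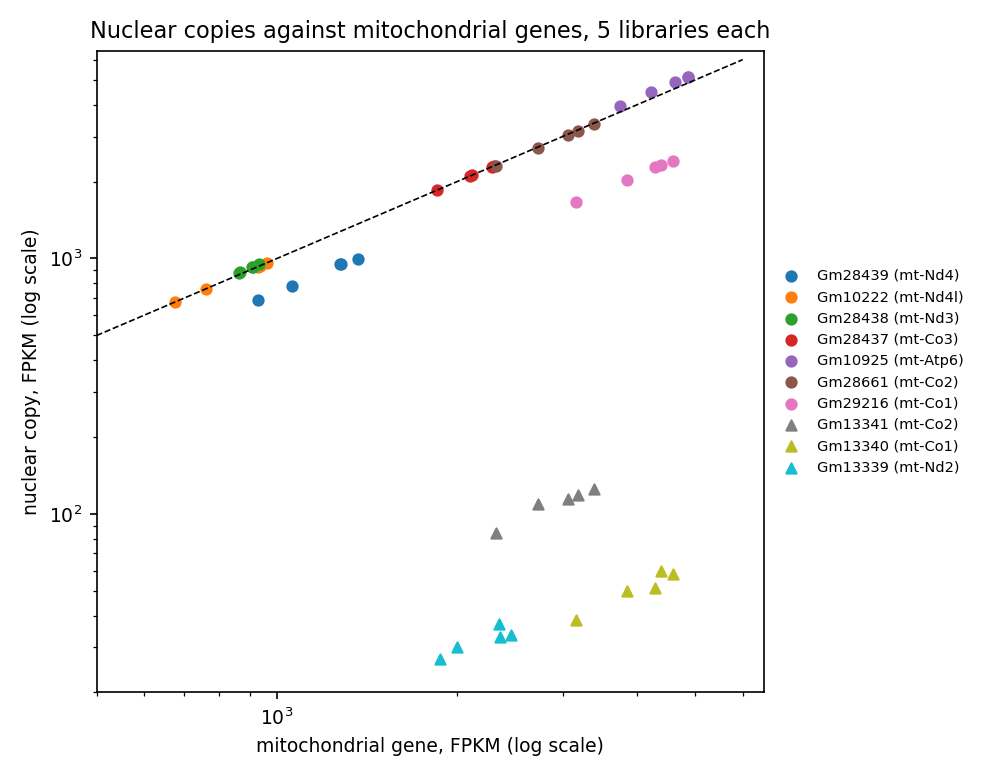
FPKM of 10 nuclear copies of mitochondrial DNA (vertical, log scale) against the mitochondrial gene each matches (horizontal, log scale), 1 point per library; circles are on chromosome 1, triangles on chromosome 2, and the dashed line marks equal levels. Of the chromosome 1 copies 5 lie along the line, and the chromosome 2 copies lie at 1.27% to 3.75% of their genes.

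Gapdh had the most copies, 31, with identities from 95.8% to 100%. Gm13394, the highest, was listed at 317.8 and 410.7 FPKM in control, 320.7 in heme and 312.2 and 308.1 in induction. Gm12671, identical to the Gapdh mRNA, was at 38.7, 51.5, 38.3, 40.0 and 39.7 FPKM, and Gm16470, the least alike, at 7.85, 10.4, 8.34, 8.36 and 8.37. In each of these copies the second control library was the highest and the other 4 were close to each other. The second control library was the highest for 31 of 31 Gapdh copies, while it was the highest for 24.4% of all transcripts tested. The ratio of the second control library to the median of the others had a median of 1.31 over the copies and was 1.31 for the summed listed transcripts of Gapdh itself (187.3, 294.2, 245.7, 216.6 and 232.2 FPKM). The copies share most of their sequence and are not independent of each other.

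Gapdh copies of nearly equal identity differed widely in level. Across the 31 copies, which share reads and libraries, identity and log2 mean FPKM had a Pearson's r of 0.66. The 12 copies under 99% identity lay between 5.31 and 35.2 FPKM, and the 15 copies of at least 99.5% identity between 14.7 and 333.9 FPKM. Both copies at 100%, Gm10359 and Gm12671, were at 28.0 and 41.6 FPKM, below Gm13394 (333.9), Gm5559 (279.0), Gm12070 (227.1) and Gm2606 (183.9) at 99.9% identity. A copy apart from the rest was Gm4691 (99.0% identity, 2 exons), which was at 4.13 and 5.77 FPKM in control and below 0.02 FPKM in the other 3 libraries.

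**Figure D3:**
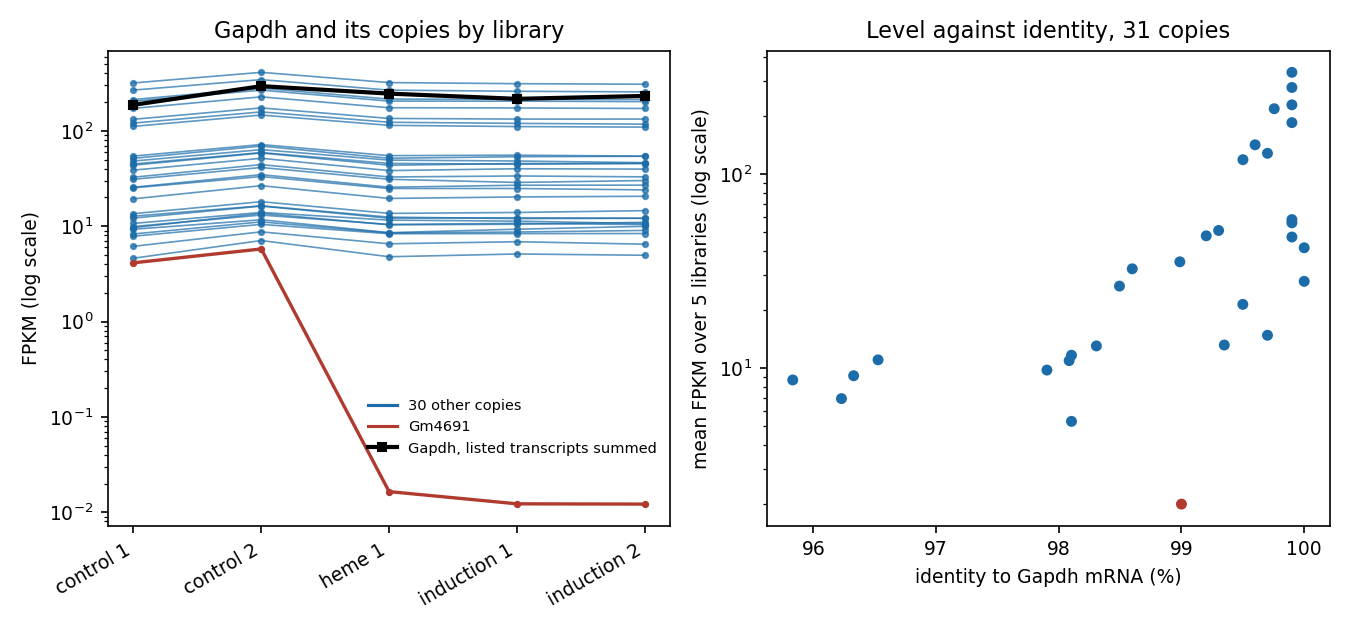
Left, FPKM (log scale) of 31 Gapdh copies and of the summed listed Gapdh transcripts in each of 5 libraries, with the copy Gm4691 in red. Right, mean FPKM (log scale) of each copy against its identity to the Gapdh mRNA. The second control library is the highest for all 31 copies, and the copies of at least 99.5% identity span 14.7 to 333.9 FPKM.

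Copies of other genes differed by family in which library was highest. The 4 copies of Hspa8, a constitutive chaperone, were all highest in the second control library, at 1.24 to 1.37 times the median of the others. Gm15459, the highest of them, was at 355.6, 439.6, 351.0, 355.7 and 338.7 FPKM, although the listed Hspa8 transcripts summed to 88.9, 1099, 847.3, 84.0 and 76.8 FPKM. Gm15459 and another Hspa8 copy, Gm26825, overlap each other on opposite strands, and their reads cannot be told apart without strand. Pgam1-ps2, identical to the mRNA of the glycolytic enzyme Pgam1, was at 88.6, 123.6, 88.6, 90.5 and 89.7 FPKM. Ftl2-ps, a copy of the ferritin light chain gene Ftl1, was at 69.6, 94.9, 78.3, 91.9 and 78.7 FPKM. For the 8 copies of Rps2 this ratio ran from 0.935 to 1.02, and for the 6 copies of Rpl21 from 0.904 to 0.934, so that the second control library was not raised in these families.

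Of the 6 -ps members with the highest levels 5 were copies of ribosomal protein genes and the other was a copy of Tpt1. Rps2-ps13 was listed at 569.5, 597.0, 571.8, 624.3 and 593.2 FPKM, which is 53.9% of the listed level of Rps2. Rpl3-ps1 was at 256.4 ± 10.5 FPKM (SD, n = 5), 61.3% of Rpl3. Rps2-ps10 was at 238.5 ± 2.12 FPKM, Rps6-ps4 at 164.1 ± 4.32, Tpt1-ps3 at 154.0 ± 7.93 and Rpl34-ps1 at 141.1 ± 2.20 (SD, n = 5 each). These 4 shared all of their 31-base windows with other genes, and they stood at 21.8%, 29.6%, 33.4% and 68.4% of Rps2, Rps6, Tpt1 (a translationally controlled protein) and Rpl34. In none of these 6 did the 2 comparisons reach an adjusted p below 0.05 in limma.

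Small RNA genes made up 50 members, 56 to 191 bases long, with a median level of 7.34 FPKM. Their overlap was taken with the exons of every M21 transcript of a gene, so a stretch counted as exonic can be intronic in other transcripts. Of the 50, 31 lay with at least 90% of their length inside exons of another gene on the same strand: 10 of the 15 miRNAs and 19 of the 31 snoRNAs among them. The highest were of this kind. Gm22133, 109 bases within the last exon of Ftl1, was at 2125, 2858, 2251, 2334 and 2275 FPKM, and Ftl1 was at 1425, 1973, 1535, 1753 and 1536, so that both were highest in the second control library. Gm26377, 108 bases in the last exon of the elongation factor gene Eef1a1, was at 2151 ± 82.7 FPKM (SD, n = 5). Gm27597, printed above, was at 1956, 1826, 1873, 1841 and 1822 FPKM beside 1044 FPKM for the listed Rpl19 transcripts. Gm24452 and Gm25894, in exons of the snoRNA host gene Snhg1, were at 16.4 and 13.8 FPKM, while Gm23130, inside Rps12, was at 20.9 FPKM in a host at 2088 FPKM.

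Gm23935 was the exception among the highest, since no exon of another M21 gene holds it. Only M21 transcripts were searched, so likeness to sequence outside them would have been missed. It was listed at 2389 and 2489 FPKM in control, 2345 in heme and 2532 and 1476 in induction. Gm24245, of identical sequence, was at 7.38, 7.10, 6.04, 8.81 and 3.97 FPKM, and Gm24187, also 57 bases long, at 46.2, 45.7, 42.6, 54.0 and 30.2. The second induction library was the lowest for all 3, and the first induction library was the highest. The induction replicates thus differed more than the groups, and for Gm23935 the difference between induction and control was -0.33 ± 0.28 (SE) on the log2(FPKM + 1) scale (adjusted p = 0.938, limma). Gm23935 and Gm24245 were thus listed at unequal levels despite equal sequence.

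Gm42418, on chromosome 17 at 39846958 to 39848788, is listed by RefSeq as another name of Rn18s-rs5, and 99.5% of it lies opposite to a gene that M21 annotates as ribosomal RNA. It was at 36.6, 27.4, 35.3, 33.6 and 27.7 FPKM. Gm26917, next to it at 39843013 to 39846341, was at 94.9, 69.4, 97.7, 104.0 and 93.2 FPKM. For both the control replicates differed as much as the groups did. Gm26917 had the highest level of the 16 Gm transcripts that share at most 5% of their windows, and it was singled out after its values were seen. At least 50% of the exonic length lay opposite to exons of another gene in 11 Gm, 3 Rik and 2 -ps members.

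Rik members had the exon structure of ordinary genes and moderate levels. The highest, 2310036O22Rik (Trir), was listed at 84.9 and 92.3 FPKM in control, 91.1 in heme and 95.5 and 94.8 in induction. 2010107E04Rik (Atp5mpl) was at 81.3 ± 5.18 FPKM, the noncoding 2410006H16Rik at 76.7 ± 5.72, 2700060E02Rik (Rtraf) at 65.3 ± 3.01, 1810022K09Rik at 56.7 ± 9.46 and the noncoding 1110038B12Rik at 52.3 ± 3.09 (SD, n = 5 each). Control and induction libraries overlapped in 4 of these 6, and in 2310036O22Rik and 1810022K09Rik both induction libraries lay above both controls. The latter held for 17.2% of all transcripts tested and for 30 of 138 Rik transcripts (21.7%). The main transcript of 1810022K09Rik was at 54.3 and 47.0 FPKM in control and at 72.0 and 58.0 in induction, a difference of 0.35 ± 0.15 (SE, log2 scale) that did not pass the test (adjusted p = 0.938, limma). Exons of 1810022K09Rik lie opposite to E2f5 and those of 2700060E02Rik opposite to Nid2, and such reads cannot be told apart without strand. Only 29.9% of Rik transcripts were the sole listed transcript of their locus, against 71.5% of Gm and 92.3% of -ps transcripts (other named, 21.2%).

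The spread over libraries was measured as the SD of log2(FPKM + 1) over the 5 libraries, in the 560 members that reached 1 FPKM in 2 or more libraries (344 Gm, 138 Rik and 78 -ps). Its median was 0.17 for Gm, 0.51 for Rik and 0.083 for -ps, beside 0.47 for other named transcripts. Between the control replicates the median absolute difference was 0.27 for Gm, 0.35 for Rik and 0.11 for -ps, and between the induction replicates it was 0.085, 0.30 and 0.071. The control replicates lay farther apart in all 3 classes, and also in other named transcripts (0.37 between controls, 0.28 between induction replicates). Without the second control library the median SD of Gm was 0.12 and that of Rik 0.41.

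The classes lay closer together at equal level and an equal number of transcripts per locus. Among transcripts above 20 FPKM that were alone at their locus, the median SD was 0.093 for Gm (152 transcripts), 0.089 for Rik (15), 0.073 for -ps (60) and 0.083 for other named ones (1066). Above 20 FPKM at loci with several listed transcripts it was 0.22 for Gm (25), 0.24 for Rik (6), 0.35 for -ps (3) and 0.17 for other named ones (1482). Between 1 and 5 FPKM the median for lone transcripts was 0.53 for Gm and 0.75 for Rik. When the transcripts of a locus were summed first, the median SD of Rik loci was 0.17, and those of Gm, -ps and other named loci were 0.14, 0.083 and 0.15. The -ps class thus kept the lowest spread in lone transcripts above 20 FPKM and in locus sums; as members are not replicates, this was not tested.

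**Figure D4:**
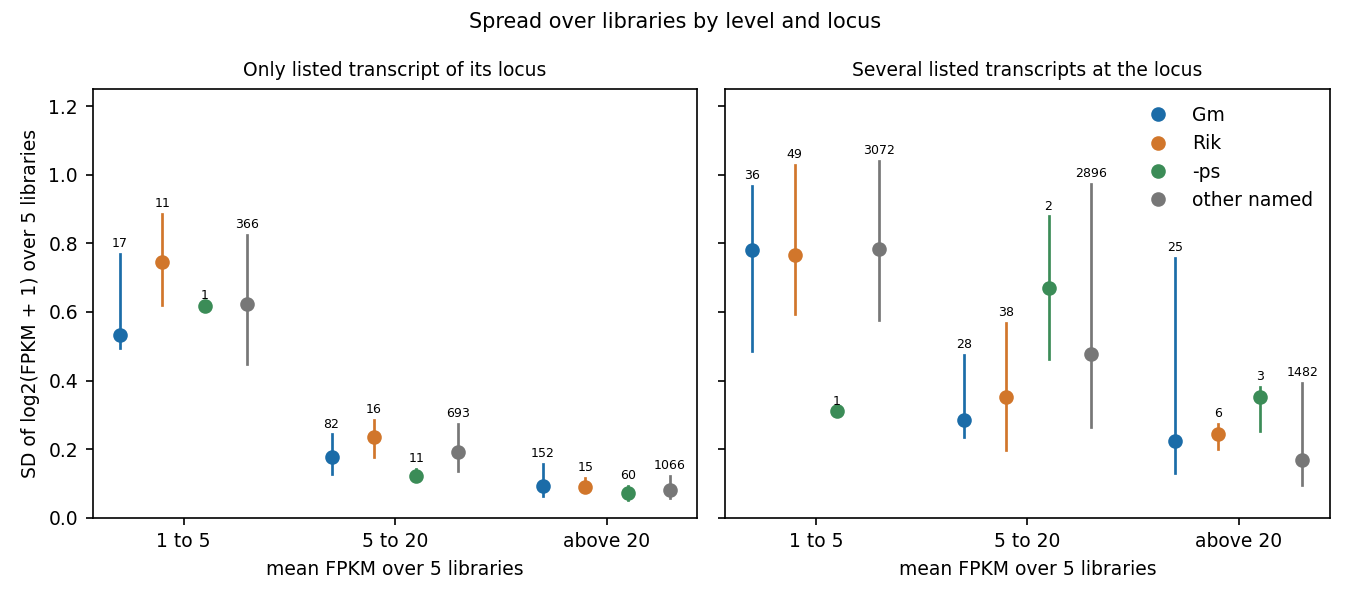
Median (point) and quartiles (line) of the SD of log2(FPKM + 1) over 5 libraries, by name class and range of mean FPKM, for transcripts alone at their locus (left) and at loci with several listed transcripts (right); small numbers count transcripts. Lone transcripts above 20 FPKM have medians from 0.073 to 0.093 in all classes.

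The widest swings belonged to transcripts that exchanged level with another transcript of their locus. Of Gm15500, a copy of Rpl5, ENSMUST00000071523 was at 1.32, 104.8, 100.0, 107.8 and 1.55 FPKM, and ENSMUST00000071641 at 89.1, 1.31, 1.22, 1.40 and 80.5. Wherever the first was high the second was low, in replicates of the same group too, and the locus summed to 94.2, 106.2, 101.2, 109.2 and 94.0 FPKM. Gm28062, which M21 assigns to Hnrnpu, a nuclear RNA-binding protein, was at 0 and 72.5 FPKM in control, 0 in heme and 28.8 and 64.1 in induction. Hnrnpu itself was at 102.9, 58.6, 99.4, 73.0 and 54.2 FPKM, high where Gm28062 was listed at 0.

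The comparison of neural induction with control asks how transcript levels differ once the cells are put in induction medium. Of the 560 members tested, none reached an adjusted p below 0.05 in limma, beside 1 of all 13737 transcripts tested (0.00728%, a lower one). With only 2 residual degrees of freedom, this does not show that the levels of members were unchanged. At an unadjusted p below 0.05 there were 17 members, beside 4.98% of all transcripts tested. Of these 10 were higher, beside 2.61% of all, and 7 were lower, beside 2.37% of all. By class they were 8 of 344 Gm (2.33%), 9 of 138 Rik (6.52%) and 0 of 78 -ps. Without the first control library this count was 63 of 548 (11.5%), beside 11.1% of all transcripts in that fit, and with a replicate block it was 5 of 560 (0.893%), beside 3.66% of all. The median difference was 0.04 on the log2(FPKM + 1) scale for members and 0.02 for all transcripts tested. In 130 members (23.2%) both induction libraries lay above both control libraries, beside 17.2% of all transcripts, and in 45 (8.04%) they lay below, beside 13.9%. For -ps members these counts were 19 and 3 of 78, with differences from -0.33 to 1.40.

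The member with the smallest p was Gm26712, 217 bases on 1 exon at chr6:57689433-57689649 (minus strand), wholly within an exon of Pyurf. It was listed at 25.3 and 22.2 FPKM in control, 34.8 in heme and 0.179 and 0.216 in induction. Both induction libraries were far below the other 3. The difference from control was -4.36 ± 0.30 (SE, log2 scale), with an unadjusted p of 0.000127 and an adjusted p of 0.176 in limma. It passed in 2 alternatives, with an adjusted p of 0.046 over locus sums and 0.0165 over all 6 columns. Over the alternatives that kept it, which leaves out the filter of 1 FPKM in all 5 libraries, its adjusted p ranged from 0.0165 to 0.742 and its difference from -6.32 to -4.28. Pyurf itself was not listed, and Gm26712 had no other listed transcript at its locus.

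The other members named for induction lay at loci with a second listed transcript. ENSMUST00000189159 of 9130401M01Rik was at 10.1 and 10.2 FPKM in control, 2.07 in heme and 0.475 and 0.0466 in induction (-3.17 ± 0.52, SE, adjusted p = 0.414, limma). The sum of that locus differed by -0.17. ENSMUST00000108126 of 3110043O21Rik, which is C9orf72, was at 0.0169 and 0.0211 FPKM in control, 3.49 in heme and 4.07 and 4.95 in induction (2.43 ± 0.52, SE, adjusted p = 0.563, limma). The other listed transcript of this gene, ENSMUST00000108127, was at 5.40 and 5.77, 2.60, and 1.85 and 2.19 FPKM, and the locus sum differed by 0.19. The control libraries held more of the second transcript and the other 3 libraries more of the first. Gm4691, the Gapdh copy described above, differed by -2.54 ± 0.53 (SE, adjusted p = 0.544, limma). An unnamed transcript at its locus was at 0.0398 and 0.0390 FPKM in control and at 4.01 and 3.81 in induction.

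Heme was compared with control to ask what heme does to these cells, with 1 heme library whose spread is assumed to be like that of the other groups. No member of 560 reached an adjusted p below 0.05 in limma, beside 10 of all 13737 transcripts (0.0728%, all lower). With 1 heme library and 2 residual degrees of freedom, this does not show unchanged levels either. At an unadjusted p below 0.05 there were 14 members, beside 4.95% of all transcripts. Of these 2 were higher, beside 1.92% of all, and 12 were lower, beside 3.03% of all. By class they were 5 of 344 Gm (1.45%), 9 of 138 Rik (6.52%) and 0 of 78 -ps. Without the first control library this count was 54 of 548 (9.85%), beside 9.41% of all transcripts in that fit. With the mean of both heme columns it was 59 of 561 (10.5%), beside 8.02% of all. The median difference was -0.02 for members and 0.00 for all transcripts (0.00213). The heme library lay above both controls for 130 members (23.2%, beside 29.4% of all transcripts) and below both for 173 (30.9%, beside 31%). For -ps members these counts were 14 and 27 of 78, with differences from -0.38 to 0.41.

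Gm15564, an antisense RNA gene with 4 exons at chr16:35966753-35983230 (minus strand), had the smallest p. It was listed at 118.9 and 93.5 FPKM in control, 0.579 in heme and 119.4 and 70.0 in induction. The heme library alone was low. The difference was -6.08 ± 0.38 (SE, log2 scale; adjusted p = 0.0650, limma). An unnamed transcript of the same locus was at 0 in both control libraries, 137.6 FPKM in heme and 7.48 and 0.132 in induction. The locus sum differed by 0.39 ± 0.38 (SE, adjusted p = 0.998, limma), which turns the direction. The adjusted p of Gm15564 ranged from 0.00171 to 0.998 over the alternatives that kept it.

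The next members, too, had a second listed transcript at their locus. ENSMUST00000149833 of 1110004E09Rik (Cfap298, a protein of cilia) was at 9.59 and 11.7 FPKM in control, listed at 0 in heme and at 7.71 and 9.16 in induction. Its other listed transcript was at 5.09 and 4.83, 14.2, and 6.70 and 5.34 FPKM, so that it was highest in heme. The transcript differed by -3.53 ± 0.45 (SE, adjusted p = 0.239, limma) and the locus sum by -0.12. Gm5537, a copy identical to the mRNA of the glycolytic enzyme Pgk1, was at 30.7 and 47.0 FPKM in control, 9.64 in heme and 32.9 and 30.2 in induction. It differed by -1.87 ± 0.30 (SE, adjusted p = 0.371, limma) and its locus sum by -0.41. For Gm4691 no other listed transcript was high in heme: the locus was at 4.17 and 5.81 FPKM in control and 0.109 in heme, and its sum differed by -2.42 ± 0.39 (SE).

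**Figure D5:**
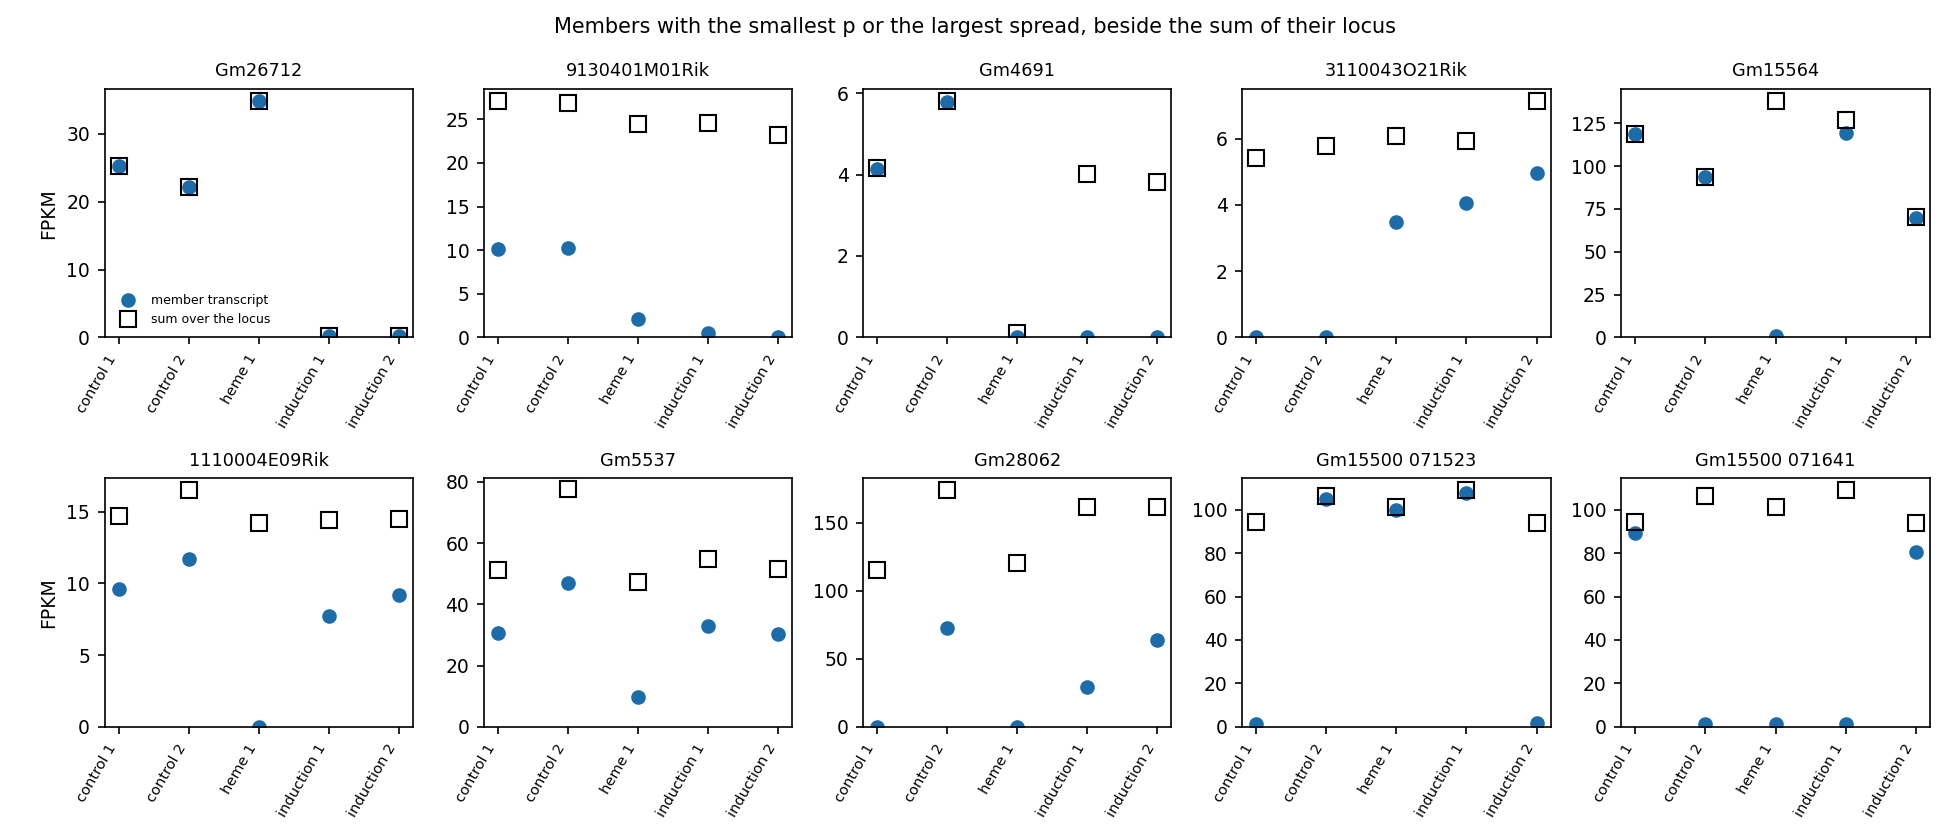
FPKM in each of 5 libraries for the 10 member transcripts with the smallest p or the largest spread (filled circles) and for the sum of the listed transcripts of their locus (open squares). For Gm26712 circle and square coincide; for most others the square stays level where the circle drops, as for Gm15564 in heme.

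The filter left out 23 members, 14 Gm and 9 Rik, each at 1 FPKM or more in at most 1 library. Their highest value fell in the first control library for 7 of them and in each of the other 4 libraries for 4. Among the 4 highest in heme were Gm12346, a copy of the heat shock protein gene Hsp90aa1, at 55.9 FPKM in heme and listed at 0 in the other 4 libraries, and Gm4613, a copy of Rpl37a, at 10.4 FPKM and otherwise at 0. ENSMUST00000099682 of B230118H07Rik was at 11.5 FPKM in heme and at most 0.121 elsewhere. These 3 passed the test only when both heme columns were used as replicates. They met the filter in that fit only because the rescaled heme column counted as another library. ENSMUST00000047486 of C330007P06Rik was listed at 14.1 FPKM in the second control library and at 0 in all others, and Gm11226 at 24.5 FPKM there and at most 0.245 elsewhere. Members high in a single library were thus found in each group.

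The authors' deposited tables hold 1 p-value per transcript and comparison, to which Benjamini-Hochberg adjustment was applied here. Those p-values come with likelihood ratio scores, not limma, and cover all 583 members without the filter. For heme, 23 of 583 members (3.95%) in the authors' deposited table then had a p below 0.05, 14 higher and 9 lower, beside 7.24% of all transcripts. Whether the rescaled heme column entered that comparison was not tested. For neural induction the same adjustment of the authors' deposited table gave 20 of 583 (3.43%), 9 higher and 11 lower, beside 7.20% of all. By class these were 19 Gm, 3 Rik and 1 -ps transcripts for heme and 18, 1 and 1 for induction, again per the authors' deposited tables.

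Long noncoding and host RNAs with established names served as a comparison list, of which 15 of 46 genes were listed, with 38 transcripts. Malat1, Neat1, Gas5, Tug1 and the Snhg host genes are among them. Their median level was 6.81 FPKM, with a median of 3 exons, 5.56% of shared windows and a median SD of 0.44. For Rik members the same 4 values were 5.24 FPKM, 5 exons, 2.99% and 0.51, and for Gm members 19.8 FPKM, 1 exon, 91.2% and 0.17. None of the 37 tested transcripts passed an adjusted p below 0.05 in limma in either comparison, and 2 were lower at an unadjusted p below 0.05 in each, beside 2.37% of all transcripts for induction and 3.03% for heme.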

How the data were processed

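RNA was sequenced from 6 samples in 3 groups. HISAT2, StringTie and edgeR were used on GRCm38 (mm10), per the submitters' processing notes, without versions. The authors deposited FPKM and mean coverage (signal) per base for each assembled transcript, and, per comparison, log2 fold changes, log2 mean abundance, likelihood ratio scores and p-values. Transcripts were joined to GENCODE M21 by identifier, and members and lists were chosen with earlier results of these data known. Copies were sought with blastn 2.17.0. Tests used limma 3.58.1 in R 4.3.3 (eBayes with intensity trend) on log2(FPKM + 1) over 5 libraries in 3 groups with 2 residual degrees of freedom, on transcripts that reached 1 FPKM in 2 or more libraries. The p-values are two-sided and were adjusted by Benjamini and Hochberg's method across every transcript in the fit, with a threshold of 0.05. This scale understates changes of low transcripts. Depth came from the ratio of coverage to FPKM; FPKM gives no counting interval. Named members are the 8 Gm, 6 Rik and 6 -ps transcripts with the highest mean, up to 4 per comparison with the smallest p among those without overlap and with at least 1 FPKM, and the 4 with the largest SD among those with at least 5 FPKM. Alternatives changed the filter, pseudocount, trend, scaling, locus sums, replicate block, heme columns and libraries.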

Additional observations from a re-analysis of the deposited data

How the results depend on the processing

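No member was called in either comparison in the reported fit, and the number called changed in 3 cases. For neural induction 1 member was called over locus sums (Gm26712) and 1 with all 6 columns. For heme 7 were called with all 6 columns, 3 of them higher, when the rescaled heme column counts as a replicate. The 3 higher ones met the filter only because the rescaled column counted as another library. With any 1 control or induction library left out, no member was called in either comparison, and no transcript at all. Over all transcripts 86 were called for induction and 417 for heme with all 6 columns, against 1 and 10. With no filter the counts were 0 and 6, with at least 1 FPKM in all 5 libraries 1 and 4, with no intensity trend 0 and 0, and over locus sums 1 and 3. Control and induction libraries of the same replicate number did not deviate together (correlation -0.015 over 13737 transcripts), and the reported fit used no pairing. With 1 such difference per group, this cannot tell whether libraries of the same number were handled together. With a replicate block 0 members were called for induction and 0 for heme, and members at an unadjusted p below 0.05 made up 0.893% for induction and 1.07% for heme, beside 3.66% and 4.32% of all transcripts in that fit. With at least 1 FPKM in all 5 libraries they made up 2.16% and 0.862%, beside 3.78% and 4.58%, and with all 6 columns 2.83% and 6.55%, beside 6.79% and 15.1%. The fold change of Gm15564 in heme reversed over locus sums, to 0.39.

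The median level of Gm was 22.2 FPKM with only loci of 1 name class and 21.1 for transcripts past the filter, that of Rik 5.73 past the filter, and that of other named transcripts 7.90 past the filter and 6.75 by the median over libraries. The median SD over locus sums was 0.17 for Rik and 0.15 for other named transcripts, and for the latter it was 0.56 with a pseudocount of 0.1 and 0.52 with no filter. With 1 library left out it ran from 0.12 to 0.19 for Gm, from 0.41 to 0.52 for Rik and from 0.42 to 0.44 for other named transcripts. The class order of levels, -ps above Gm above other named above Rik, was the same in all of these settings. Reads per transcript were not used, so the counting error of low members cannot be given. Assignment of reads between copies and parents was not tested.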
